A study of Mus musculus with 6 samples.

Results

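The cadherins and protocadherins, the adhesion genes described here, were measured by RNA sequencing in parvalbumin-positive neurons isolated from mouse lumbar 4 dorsal root ganglia, with and without Dicer. Members were chosen by name, as every row of the deposited expression table named Cdh plus a number or starting with Pcdh, which gave 55 of 31032 distinct names, each held by 1 row. They comprised 23 Cdh genes, 10 non-clustered protocadherins and 22 clustered protocadherins, the last being 1 Pcdha row and 21 Pcdhb rows. Knockout neurons, with 3 libraries, had lost Dicer, the enzyme that cuts microRNA precursors to their mature form, through Cre driven by parvalbumin. These were set against 3 wild-type libraries. All 6 came from C57BL/6 mice at postnatal day 21. The labels do not say which alleles the wild-type mice carried or whether the libraries came from separate animals, and p-values here cover the spread between libraries, which may be technical.

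Classical cadherins are single-pass membrane proteins that bind the same or related cadherins on a neighbouring cell through calcium-dependent extracellular repeats and link to actin through beta-catenin and alpha-catenin. Type I cadherins such as N-cadherin are broadly expressed, whereas type II cadherins are expressed in combinations that differ between neuron classes and are known to guide the sorting and wiring of motor, retinal and sensory neurons. Non-clustered delta protocadherins mark neuron subsets with weaker adhesion and act through other cytoplasmic partners. The clustered protocadherins are chosen promoter by promoter in single neurons, give each cell a surface identity, and serve self-avoidance and survival. Parvalbumin in these ganglia marks mainly proprioceptors, the neurons that innervate muscle spindles and tendon organs.

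Values are TPM, a share of transcripts corrected for transcript length and scaled to the same total in each library, so levels can be compared between genes but the sequencing depth behind them is unknown. Dicer1 itself was at 24.0, 20.8 and 21.8 TPM in knockout libraries, against 36.7, 26.0 and 48.7 TPM in wild-type libraries. Its difference of -0.68 on the log2 scale did not pass the test (limma adjusted p = 0.104). The value covers the whole gene and not the deleted part, so it is a weak check of the labels. Ddx3y, a gene of the Y chromosome, was at 32.7 TPM in knockout replicate 3 and 33.3 TPM in wild-type replicate 3 and did not exceed 0.02 TPM elsewhere. Without these 2 libraries Cdh20 and Pcdh8 still passed among the members described below, and the other 6 did not. All 9 proprioceptor markers found, Pvalb, Ntrk3, Runx3, Etv1, Slc17a7, Spp1, Heg1, Nxph1 and Esrrg, were detected in every library. For each of the 9 the knockout libraries lay wholly below the wild-type libraries, as in 17.1% of all tested rows. In the test described below 7 of the 9 fell, where 3.17% of all tested rows did, and Ntrk3 and Slc17a7 did not pass. The list was chosen with earlier results of these data known, so these counts are not independent of those results. Pvalb itself averaged 7.23 TPM in knockout libraries and 22.6 TPM in wild-type libraries (limma adjusted p = 0.0452). The summed level of the 9 was 871 to 1076 TPM in knockout libraries and 1795 to 1934 TPM in wild-type libraries. Knockout replicate 2 was the lowest of the 3 knockout libraries for 23 of 42 tested members, where it was also lowest in 47.7% of all tested rows.

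Tests used limma on log2(TPM + 1) over 13787 rows whose mean TPM reached 1, with p-values adjusted by Benjamini and Hochberg over all of them. A gene is said to have risen or fallen when its adjusted p was under 0.05, and fold changes are knockout over wild type on the log2(TPM + 1) scale, which understates changes of low genes. Of the 55 members, 42 entered the test, and 13 lay under the filter. Over the 42, 2 rose and 6 fell. Among all tested rows 5.03% passed, with 1.86% higher and 3.17% lower. The falls were Cdh20, Cdh7, Cdh8 and Cdh12 among the type II cadherins and Pcdh8 and Pcdh10 among the delta-2 protocadherins, and the rises were Cdh13 and Pcdh17. The median log2 fold change was -0.28 over the tested members and -0.05 over all tested rows. Pcdh8 and Pcdhb5 entered the test through the wild-type group, since their knockout means were under 1 TPM. In samples made from many cells, fewer cells of a type and less RNA per cell cannot be told apart.

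**Figure D1:**
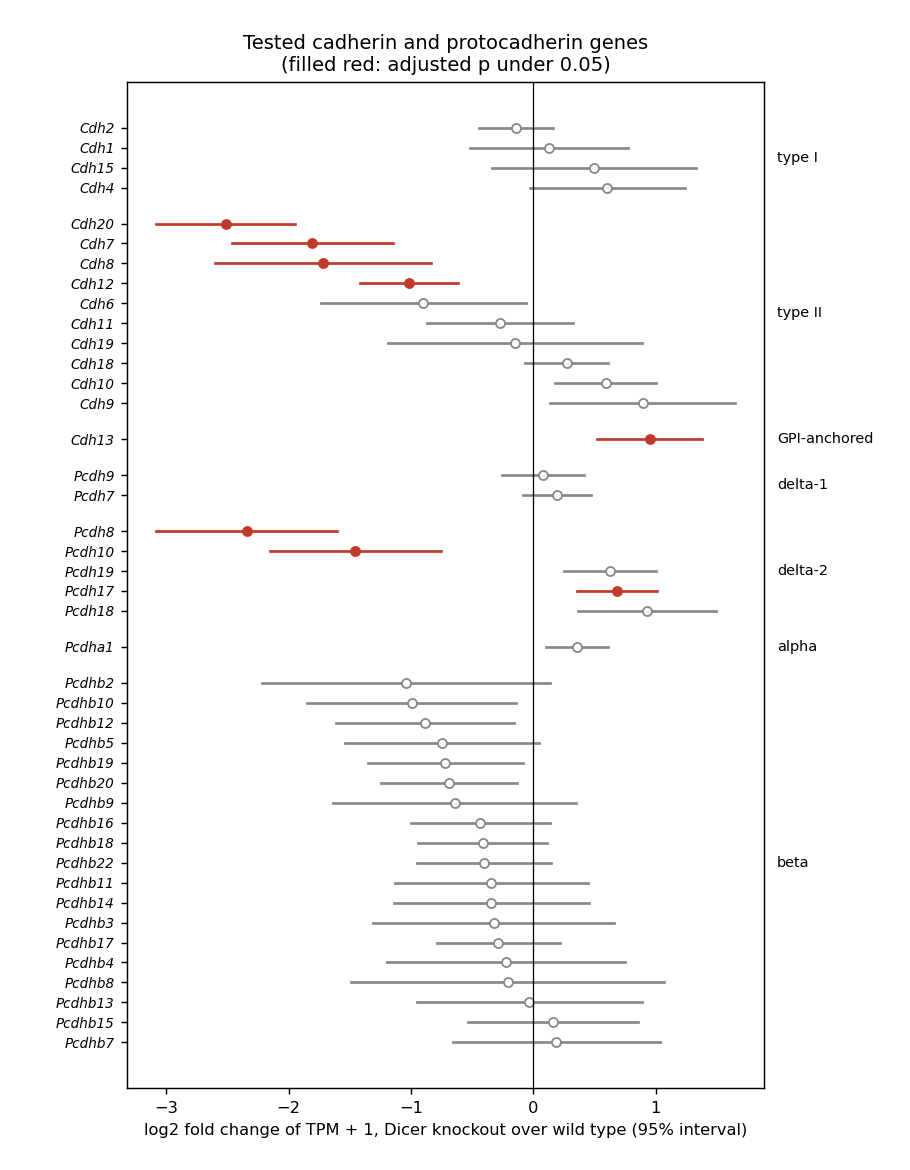
Log2 fold changes (knockout over wild type, x axis) with 95% intervals for the 42 tested members, grouped by subfamily down the page. Filled red points passed the test: 4 type II cadherins and Pcdh8 and Pcdh10 lie left of 0, Cdh13 and Pcdh17 right of it, and no alpha or beta protocadherin passed.

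Type II cadherins showed the deepest losses among the tested Cdh genes, from levels that were moderate in wild type. Cdh20, a type II cadherin of the developing nervous system, was at 2.57, 1.62 and 3.25 TPM in knockout libraries and at 17.2, 17.3 and 21.1 TPM in wild-type libraries. The groups were far apart, with the knockout mean at 13.4% of the wild-type mean (2.48 ± 0.82 against 18.6 ± 2.22 TPM, SD, n = 3 each). Its log2 fold change was -2.51 (SE 0.25, limma adjusted p = 0.00212). Cdh7, its close relative on the same chromosome, was at 0.76, 1.59 and 1.42 TPM in knockout libraries and at 5.89, 7.58 and 6.97 TPM in wild-type libraries, again without overlap (log2 fold change -1.81, SE 0.29, limma adjusted p = 0.0128). GENCODE vM21 on GRCm38 places Cdh20 on chromosome 1 at 104768529 to 104995481 and Cdh7 at 109982431 to 110140157, both on the plus strand. Cdh19, at 110888326 to 110977584 on the same chromosome, is best known from Schwann cell precursors. It was at 1.93, 2.13 and 2.39 TPM in knockout libraries and at 2, 1.01 and 6.09 TPM in wild-type libraries, and the groups overlapped (log2 difference -0.15, 95% interval -1.19 to 0.89).

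Cdh12 was the most abundant of the falling members. It was at 38.9, 25.4 and 37.6 TPM in knockout libraries and at 72.5, 63.2 and 69.9 TPM in wild-type libraries, so that the knockout mean was 49.6% of the wild-type mean (log2 fold change -1.01, SE 0.18, limma adjusted p = 0.0161). Cdh8, a type II cadherin needed for a cold-sensing circuit in mouse, was at 6.49, 1.65 and 6.83 TPM in knockout libraries and at 16.9, 17.7 and 15.6 TPM in wild-type libraries. Knockout replicate 2 was lowest, and all 3 knockout values were below all 3 wild-type values (log2 fold change -1.72, SE 0.39, limma adjusted p = 0.041). The fall of Cdh20 passed whichever library was left out (adjusted p 0.00441 to 0.0134). The call was lost for Cdh7 without knockout replicate 1 (0.0546), for Cdh12 without wild-type replicate 3 (0.0598), and for Cdh8 without knockout replicate 1 or any 1 wild-type library (highest 0.0982).

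**Figure D2:**
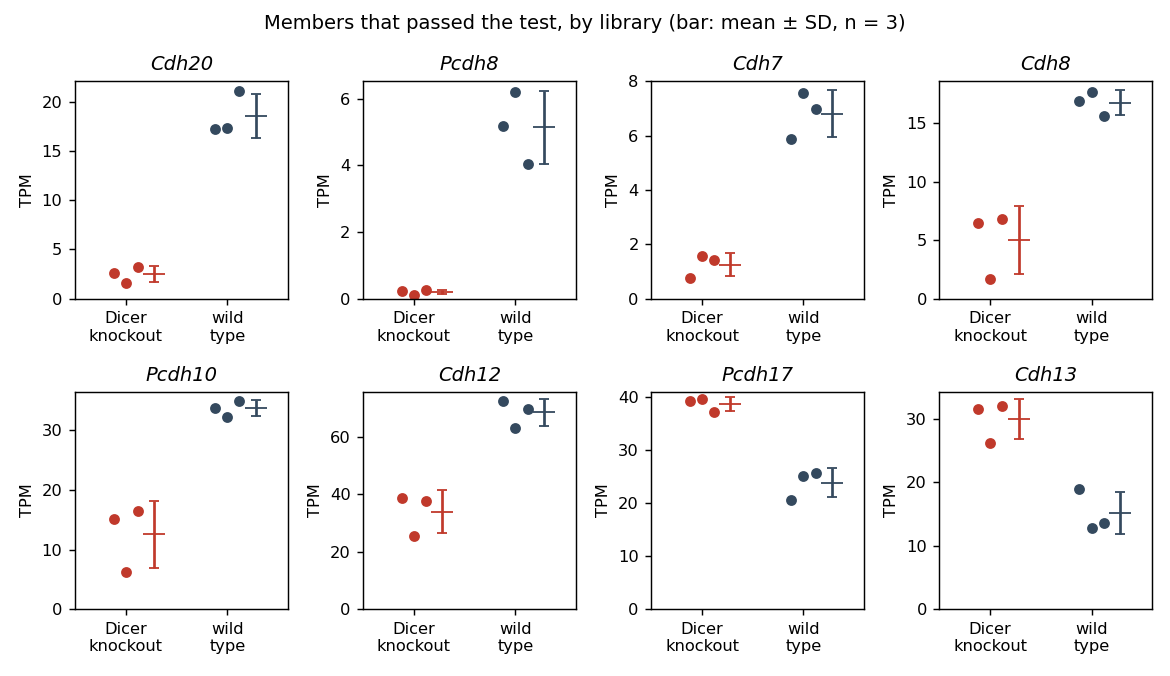
TPM (y axis, linear from 0) of the 8 members that passed the test, with 1 point per library and the mean ± SD beside it (n = 3 per group, knockout left and wild type right). The knockout points of Cdh20 lie between 1.62 and 3.25 TPM, below 17.2 to 21.1 TPM in wild type, and those of Cdh13 between 26.2 and 32.0 TPM, above 12.9 to 19.0 TPM.

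Genes listed as markers of satellite glia, which wrap sensory neuron bodies, were detected in every library. Which cells these transcripts came from was not tested. Of 14 tested satellite glia markers, 3 fell (Fabp7, Gja1 and Aldoc) and 0 rose. The log2 difference was negative for 12 of the 14, with a median of -0.78, and 6 were lower and 1 higher at an unadjusted p below 0.05. Over all tested rows 3.17% fell and 1.86% rose, 55% had a negative difference, and the median was -0.05. At the unadjusted level 14.1% of all tested rows were lower and 9.77% higher. Their mean log2(TPM + 1) was 5.54, 5.01 and 5.98 in knockout libraries and 6.31, 5.61 and 6.75 in wild-type libraries, and the groups overlapped. The list's summed level was 2769 to 3357 TPM in knockout libraries and 3103 to 4269 TPM in wild-type libraries, with overlap, and S100b, at 1266 TPM in knockout libraries and 1273 TPM in wild-type libraries on average, was its most abundant gene. Without S100b the list summed to 1544 to 2138 TPM in knockout libraries and 1847 to 3022 TPM in wild-type libraries, with overlap. None of the 14 was at 0 in all libraries. With the mean log2 level of these markers as a covariate, Cdh20 kept its call at -2.21 (adjusted p = 0.0215) and Pcdh8 at -2.47 (adjusted p = 0.0348). Under the same covariate Cdh7 was at -1.90 (adjusted p = 0.0577), Cdh12 at -0.78 (0.112), Cdh8 at -1.29 (0.189), Pcdh10 at -1.01 (0.168), Cdh13 at 1.09 (0.078) and Pcdh17 at 0.65 (0.143). The part of glial RNA in these differences was not tested beyond this covariate. The Schwann cell list, of which 1 of 6 tested genes (Pmp22) rose, summed to 1054 to 1407 TPM in knockout libraries and 465 to 546 TPM in wild-type libraries. Without Pmp22 the sum was 24.1 to 36.4 TPM in knockout libraries and 29.8 to 38.9 TPM in wild-type libraries. Mbp was lower in all knockout libraries without passing (6.77 ± 1.13 TPM in knockout libraries and 14.1 ± 3.58 TPM in wild-type libraries, adjusted p = 0.0568), Ncmap, under the filter, did not exceed 0.31 TPM in knockout libraries and was at 0.94 to 1.43 TPM in wild-type libraries, Mag and Prx did not exceed 0.33 TPM in any library, and the part of these cells was not tested.

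The other type II cadherins did not pass, and they lay on both sides of 0. Cdh18, the most abundant Cdh gene in both groups, was at 159, 148 and 113 TPM in knockout libraries and at 109.9, 129 and 107 TPM in wild-type libraries, and the groups overlapped (log2 difference 0.27, 95% interval -0.07 to 0.61). Cdh10 was at 37.7, 25.2 and 29.7 TPM in knockout libraries and at 22.1, 19.1 and 18.7 TPM in wild-type libraries. The groups did not overlap, and the difference of 0.59 missed the threshold (limma adjusted p = 0.0926). Cdh9, a cadherin of retinal and hippocampal synapses in mouse, was at 5.65, 3.88 and 4.19 TPM in knockout libraries and at 2.97, 1.06 and 2.22 TPM in wild-type libraries (log2 difference 0.89, adjusted p = 0.149). Cdh6, the third member of that binding group, was at 4.99, 2.31 and 5.37 TPM in knockout libraries and at 8.31, 5.28 and 13.1 TPM in wild-type libraries, overlapping at 1 pair of values (log2 difference -0.90, adjusted p = 0.182). Cdh11, which is also strongly expressed by fibroblasts, was at 26.0, 17.9 and 26.1 TPM in knockout libraries and at 23.4, 22.0 and 42.4 TPM in wild-type libraries (log2 difference -0.27, adjusted p = 0.567).

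Most type II cadherins fall into 3 groups by the partners they bind, and the summed levels of those groups were not tested. Cdh5 and Cdh19 were placed in none of the 3 here. In the first group below Cdh18 differed in sign from the other tested members, and in the last group Cdh6 did. The group of Cdh7, Cdh12, Cdh18, Cdh20 and Cdh22 summed to 178 ± 22.8 TPM in knockout libraries and 209.9 ± 6.74 TPM in wild-type libraries (SD, n = 3 each). The group of Cdh8, Cdh11 and Cdh24 summed to 29.2 ± 7.42 TPM in knockout libraries and 46.8 ± 10.6 TPM in wild-type libraries. In neither of these did the groups overlap. The group of Cdh6, Cdh9 and Cdh10 summed to 39.6 ± 8.51 TPM in knockout libraries and 30.9 ± 4.73 TPM in wild-type libraries, with overlap. Within all type II transcripts, Cdh18 made up 56.3% ± 7.59 in knockout libraries and 39.7% ± 5.13 in wild-type libraries, while Cdh12 made up 13.6% ± 2.63 in knockout libraries and 23.6% ± 1.83 in wild-type libraries. Cdh20 made up 1.0% ± 0.36 in knockout libraries and 6.37% ± 0.48 in wild-type libraries. These shares depend on one another, since they add to the same total, and were not tested.

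None of the 4 tested type I cadherins passed limma, with an unadjusted p below 0.05 in 0 of them. Over all tested rows, 9.77% were higher and 14.1% lower at that unadjusted level. Cdh2, which encodes N-cadherin, the main neuronal type I cadherin, was at 75.4, 70.4 and 72.8 TPM in knockout libraries and at 77.3, 71.3 and 94.7 TPM in wild-type libraries. The difference was small next to the spread (log2 difference -0.14, 95% interval -0.45 to 0.16). Cdh1, which encodes E-cadherin, was at 14.1, 14.2 and 12.8 TPM in knockout libraries and at 13.5, 7.57 and 18.5 TPM in wild-type libraries (log2 difference 0.13, 95% interval -0.52 to 0.78). Cdh4, which encodes R-cadherin, averaged 5.17 ± 0.64 TPM in knockout libraries and 3.12 ± 0.98 TPM in wild-type libraries (adjusted p = 0.228), and Cdh15, a muscle cadherin, averaged 2.18 ± 0.34 TPM in knockout libraries and 1.35 ± 0.84 TPM in wild-type libraries (adjusted p = 0.456).

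Cdh13 was the Cdh gene that rose. It encodes T-cadherin, which is held in the membrane by a lipid (GPI) anchor and has no cytoplasmic tail for catenins. It was at 31.6, 26.2 and 32.0 TPM in knockout libraries and at 19.0, 12.9 and 13.6 TPM in wild-type libraries, without overlap, at 197% of the wild-type mean (log2 fold change 0.95, SE 0.19, limma adjusted p = 0.0268). Its gene lies on chromosome 8 at 118283733 to 119324921. The call held without wild-type replicate 1 (0.0209) and was lost when any other single library was left out (highest adjusted p 0.109). The fold change was 0.85 to 1.11 over these 6 fits.

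Of the 23 Cdh genes, 8 lay under the filter. Cdh22, a type II cadherin of the same binding group as Cdh7, Cdh12, Cdh18 and Cdh20, was at 0.07, 0 and 0 TPM in knockout libraries and at 0.51, 0.92 and 1.07 TPM in wild-type libraries, and was not tested. Cdh17 and Cdh24 had means just under 1 TPM, at 0.98 and 0.89 TPM in knockout libraries and 0.84 and 0.80 TPM in wild-type libraries. Cdh3, Cdh16, Cdh23 and Cdh26 did not exceed 0.77 TPM in any library. Cdh5, the cadherin of endothelial junctions, did not exceed 0.36 TPM. Of 8 endothelial and mural markers found, Cldn5 and Flt1 were listed at 0 in all 6 libraries, and the others were not. Egfl7, the most abundant, averaged 18.8 TPM in knockout libraries and 15.2 TPM in wild-type libraries. Rgs5 averaged 3.36 TPM in knockout libraries and 1.1 TPM in wild-type libraries. The part of endothelial and mural RNA was not tested.

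**Figure D3:**
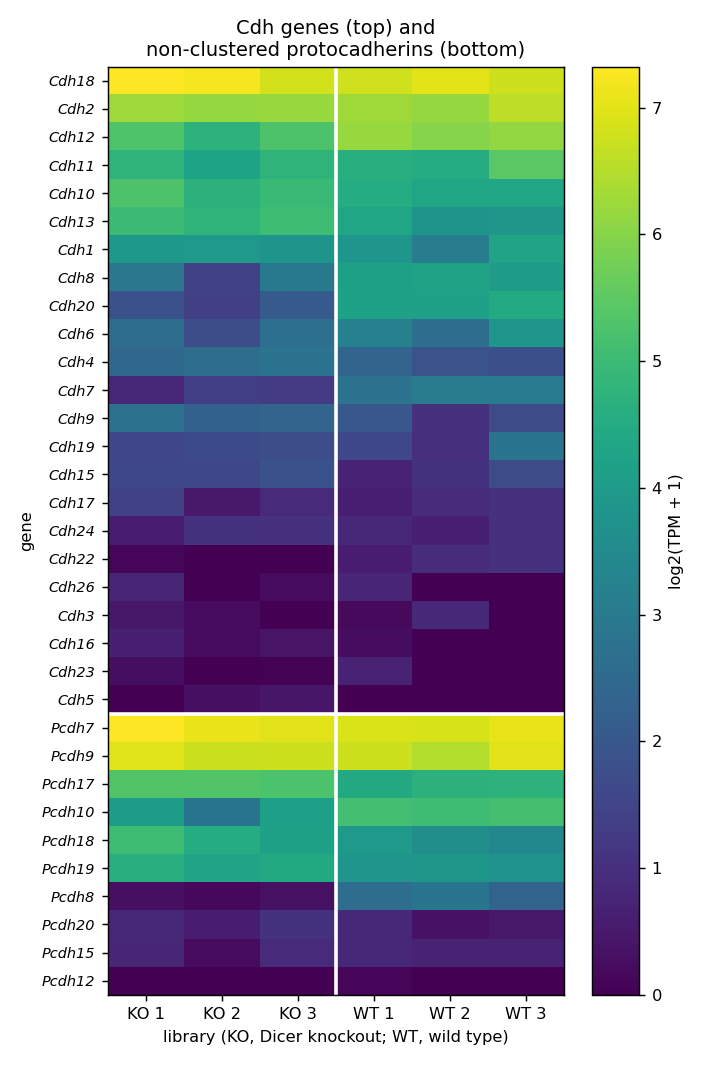
Level of each Cdh gene (top block) and non-clustered protocadherin (bottom block) as log2(TPM + 1) by colour, with 1 column per library, knockout (KO) left and wild type (WT) right, and genes ordered by mean level. Cdh18, Cdh2, Pcdh7 and Pcdh9 are bright in all 6 libraries, while Cdh8, Cdh20, Cdh7, Pcdh10 and Pcdh8 are darker in the 3 knockout columns.

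All 5 delta-2 protocadherins separated the groups, in opposite directions: 2 fell, 1 rose, and 2 lay higher without passing. Over all tested rows the knockout libraries lay wholly above the wild-type libraries in 11.8% and wholly below in 17.1%. Pcdh8, an activity-regulated protocadherin also called arcadlin, was at 0.22, 0.12 and 0.26 TPM in knockout libraries and at 5.17, 6.21 and 4.04 TPM in wild-type libraries. The knockout mean was 3.89% of the wild-type mean (log2 fold change -2.34, SE 0.33, limma adjusted p = 0.00697). Its knockout values lay near the floor, and it entered the test only through the wild-type group. Pcdh10, also called OL-protocadherin, was at 15.1, 6.21 and 16.5 TPM in knockout libraries and at 33.8, 32.3 and 35.0 TPM in wild-type libraries, with knockout replicate 2 lowest (log2 fold change -1.45, SE 0.31, limma adjusted p = 0.0329). Pcdh8 passed whichever library was left out (adjusted p 0.0187 to 0.0348). Pcdh10 lost its call without knockout replicate 1 or any 1 wild-type library (highest 0.0952).

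Pcdh17, which takes part in corticobasal ganglia synapses and axon extension in mouse, was at 39.3, 39.7 and 37.3 TPM in knockout libraries and at 20.7, 25.2 and 25.6 TPM in wild-type libraries. The knockout values lay in a narrow band above all wild-type values (log2 fold change 0.68, SE 0.14, limma adjusted p = 0.0322). Its call was lost whichever library was left out (adjusted p 0.0588 to 0.115), with a fold change of 0.59 to 0.74. Pcdh18 was at 31.9, 22.4 and 17.3 TPM in knockout libraries and at 14.6, 11.3 and 9.64 TPM in wild-type libraries (log2 difference 0.93, adjusted p = 0.0656, and 0.0483 without knockout replicate 3). Pcdh19, the X-linked protocadherin linked to epilepsy in humans, was at 23.2, 18.5 and 20.7 TPM in knockout libraries and at 13.0, 13.7 and 12.6 TPM in wild-type libraries (log2 difference 0.63, adjusted p = 0.0646, and 0.0402 with median-of-ratios rescaling). Both sets of values were clear of each other without passing the test. Over 15 alternative fits Pcdh18 passed in 2 and Pcdh19 in 1. Their highest limma adjusted p was 0.235 and 0.246.

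The summed delta-2 level overlapped between the groups while its makeup did not. The 5 genes summed to 96.2 ± 12 TPM in knockout libraries and 87.6 ± 0.92 TPM in wild-type libraries (SD, n = 3 each). Pcdh10 made up 13.0% ± 5.43 of that sum in knockout libraries and 38.5% ± 1.91 in wild-type libraries, and Pcdh17 made up 40.7% ± 4.90 in knockout libraries and 27.2% ± 3.08 in wild-type libraries. Pcdh8 and Pcdh17 lie on the same chromosome, 14, at 79766775 to 79771312 and 84443563 to 84539002, and moved in opposite directions. Pcdh9, on the same chromosome at 93013410 to 93890679, did not pass.

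The delta-1 protocadherins were the most abundant of the non-clustered genes and neither passed limma, with 0 at an unadjusted p below 0.05. Pcdh7, which binds protein phosphatase 1 in its cytoplasmic tail, was at 159, 138 and 128 TPM in knockout libraries and at 120.3, 116 and 135 TPM in wild-type libraries (log2 difference 0.19, 95% interval -0.09 to 0.47). Pcdh9 was at 124, 106 and 107 TPM in knockout libraries and at 108, 88.0 and 126 TPM in wild-type libraries (log2 difference 0.08, 95% interval -0.26 to 0.42). Both overlapped between the groups. Pcdh15, a component of hair cell tip links, and Pcdh20 stayed under the filter at no more than 0.85 and 1.11 TPM in any library, and Pcdh12, an endothelial protocadherin, was at 0.08 TPM in 1 wild-type library and listed at 0 in the others.

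Because Dicer makes microRNAs, the 3' untranslated regions of the tested members were searched for sites of 6 microRNAs known from neurons (let-7a, miR-9 and miR-128) or from the sensory cluster of miR-96, miR-182 and miR-183. The microRNAs themselves are not analysed here, and the choice came from general knowledge with results of these data known. The mature sequences with at least 1 site in a member outside the clustered genes, from RefSeq on GRCm38.p6, are shown with the seed (bases 2 to 8) in capitals, since the seed sets which site is searched. No pair among them shares a full seed.
mmu-let-7a-5p: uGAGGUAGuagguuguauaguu
mmu-miR-9-5p: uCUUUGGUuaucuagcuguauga
mmu-miR-96-5p: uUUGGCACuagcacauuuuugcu
mmu-miR-182-5p: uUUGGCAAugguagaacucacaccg

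The site searched was the reverse complement of the seed followed by A, read on the transcript strand of the longest 3' untranslated region of each gene in GENCODE vM21. It was found in 9 of the 42 tested members, once in each. The windows below are from members outside the clustered genes that passed the test or had groups that did not overlap, with the site in capitals and the flanking bases in lower case. They are transcript-strand sequences on GRCm38, at chr1:104995183-104995212 (plus strand), chr1:109995994-109996023 (plus), chr14:84538587-84538616 (plus), chr3:49744509-49744538 (minus) and chrX:133585991-133586020 (minus).
Cdh20, miR-96 site: gtctcttctgaGTGCCAAAtgtggagatca
Cdh7, miR-96 site: ttatattttatGTGCCAAAgtctcactcat
Pcdh17, miR-9 site: acatagatatgACCAAAGAtacaattacta
Pcdh18, miR-182 site: aaaaactggcgTTGCCAAAtagttgcattt
Pcdh19, let-7a site: tgtactgaataCTACCTCAtgcaaaatatt

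Sites were present in Cdh20 and Cdh7, which fell, in Pcdh17, which rose, and in members that did not pass. The miR-96 site GTGCCAAA was in 2 of 42 tested members, both of which fell, and in 3.22% of the 11525 tested genes searched. The miR-9 site ACCAAAGA was in 4 members, Pcdh17, Cdh1, Pcdh7 and Pcdhb5, of which Pcdh17 rose and Pcdhb5 lay lower in all knockout libraries without passing, and in 4.82% of all genes. The miR-182 site TTGCCAAA, which matches the miR-96 site in all but its first base, was in Cdh19 and Pcdh18 and in 5.52% of all genes. The let-7a site CTACCTCA was in Pcdh19 and in 3.75% of all genes. The miR-128 site CACTGTGA and the miR-183 site GTGCCATA were in no tested member and in 6.07% and 2.06% of all genes. Regions differed in length, with a median of 1575 bases in tested members and 1261 bases in all genes searched, and no length was matched. Cdh13, Cdh12, Cdh8, Pcdh10 and Pcdh8 held none of the 6 sites. A match is a description of the sequence and not evidence of binding.

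Clustered protocadherins did not pass limma in any of their 20 tested rows, and at an unadjusted p below 0.05 there were 1 higher and 4 lower, beside 9.77% higher and 14.1% lower of all tested rows. The Pcdha isoforms share constant exons and the single-exon Pcdhb genes resemble one another, so reads can be split between near copies by the estimation model and single values are uncertain. Pcdha1, the 1 row of the alpha cluster, was the most abundant member, at 468, 390.1 and 395 TPM in knockout libraries and at 340.2, 302 and 334 TPM in wild-type libraries. The groups did not overlap, and the log2 difference of 0.36 missed the threshold (SE 0.11, limma adjusted p = 0.0996). The labels do not say whether this row holds reads of other alpha isoforms, and gamma isoforms are not analysed here. Both clusters lie on chromosome 18, with Pcdha1 at 36930184 to 37187661.

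Most beta genes had negative differences, none of which passed. Of 19 tested Pcdhb rows, 17 had a negative and 2 a positive log2 difference, where 55% of all tested rows were negative. Their median was -0.41, beside -0.05 over all tested rows. The knockout libraries lay wholly below the wild-type libraries in 7 of the 19 and wholly above in 0. Over all tested rows these shares were 17.1% and 11.8%. With median-of-ratios rescaling 16 of the 19 were negative and 3 positive. Summed over its 21 rows, the beta cluster was at 102.2, 68.8 and 75.2 TPM in knockout libraries and at 110.9, 126 and 101.7 TPM in wild-type libraries. Knockout replicate 1 exceeded the lowest wild-type value, so the groups overlapped (82.1 ± 17.7 against 112.9 ± 12.3 TPM, SD, n = 3 each). The difference of mean log2 sums was -0.48, and it was between -0.65 and -0.36 when 1 library was left out.

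Pcdhb16 and Pcdhb17 were the most abundant beta genes and overlapped between groups. Pcdhb16 was at 19.2, 11.9 and 11.3 TPM in knockout libraries and at 18.7, 24.1 and 15.0 TPM in wild-type libraries (log2 difference -0.44, 95% interval -1.0 to 0.13). Pcdhb17 was at 13.1, 14.2 and 8.47 TPM in knockout libraries and at 13.7, 16 and 13.8 TPM in wild-type libraries (log2 difference -0.29, 95% interval -0.79 to 0.22). The 4 rows with an unadjusted p below 0.05 were Pcdhb10, Pcdhb12, Pcdhb19 and Pcdhb20. Pcdhb20 was at 5.90, 3.99 and 3.79 TPM in knockout libraries and at 8.34, 7.04 and 8.21 TPM in wild-type libraries (adjusted p = 0.132). Pcdhb19 was at 4.07, 4.12 and 2.19 TPM in knockout libraries and at 5.79, 6.00 and 6.80 TPM in wild-type libraries (adjusted p = 0.161). Pcdhb12 was at 1.84, 1.08 and 1.52 TPM in knockout libraries and at 2.51, 4.17 and 4.18 TPM in wild-type libraries, and Pcdhb10 was at 3.59, 2.75 and 1.69 TPM in knockout libraries and at 10.5, 5.74 and 3.72 TPM in wild-type libraries. In all 4 every knockout value was below every wild-type value, as in 17.1% of all tested rows. Pcdhb1 was listed at 0 in all 6 libraries, and Pcdhb6 was under the filter.

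**Figure D4:**
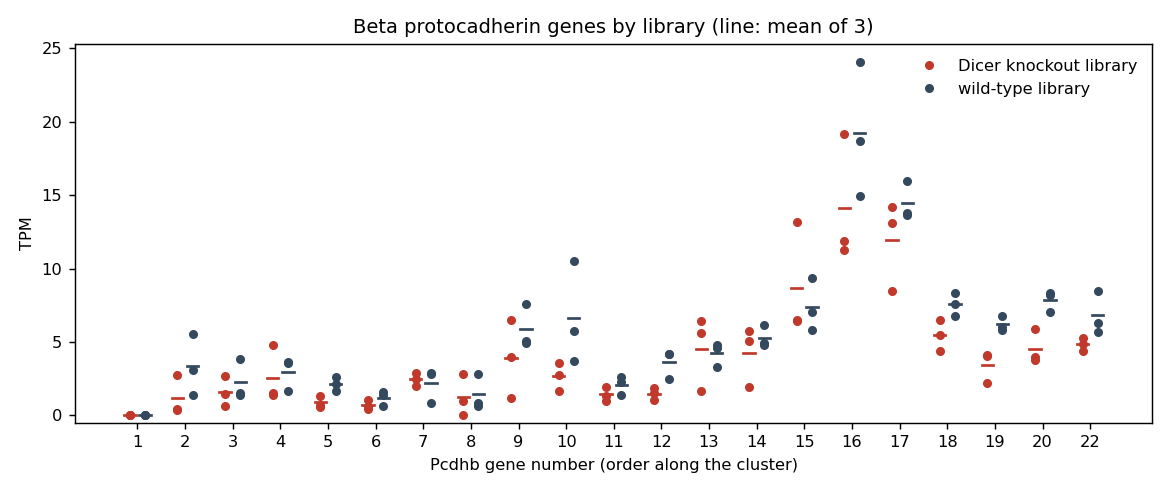
TPM (y axis) of the 21 Pcdhb genes in their order along the cluster (x axis), with 1 point per library, a line at the mean of 3, and knockout (red) left of wild type (dark) for each gene. Levels are highest at Pcdhb16 and Pcdhb17. The knockout points lie wholly below the wild-type points in 7 of the 19 tested genes, beside 17.1% of all tested rows.

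The catenins, which tie cadherin tails to actin, changed in both directions. Of 11 tested catenin and junction partner genes, 2 rose, 2 fell and 7 did not pass, with a median log2 difference of -0.13. Over all tested rows 1.86% rose and 3.17% fell, with a median of -0.05. Ctnnb1, which encodes beta-catenin, the core partner of classical cadherins and an effector of Wnt signalling, was at 201.4, 169 and 240 TPM in knockout libraries and at 295, 421 and 341 TPM in wild-type libraries, without overlap (log2 fold change -0.79, SE 0.17, limma adjusted p = 0.0325). Jup, which encodes plakoglobin, its close relative in cadherin junctions, rose to 78.2, 117 and 80.1 TPM in knockout libraries, against 53.9, 54.9 and 45.6 TPM in wild-type libraries (log2 fold change 0.80, SE 0.17, limma adjusted p = 0.0349). Ctnna2, the neuronal alpha-catenin, rose by 0.58 (129.9 ± 13.3 TPM in knockout libraries and 86.6 ± 9.90 TPM in wild-type libraries, adjusted p = 0.0418), and Pkp4, an armadillo protein of the p120 family, fell by 0.61 (25.3 ± 2.33 TPM in knockout libraries and 39.2 ± 1.79 TPM in wild-type libraries, adjusted p = 0.0408). Each call was lost on leaving out at least 4 of the 6 libraries in turn, and the highest adjusted p then was 0.11 for Ctnnb1, 0.106 for Jup, 0.148 for Ctnna2 and 0.132 for Pkp4. With the satellite glia covariate none of the 4 passed (Ctnnb1 0.139, Jup 0.1875 with a fold change of 0.54, Ctnna2 0.0782 and Pkp4 0.174). The 2 p120-type catenins Ctnnd1 and Ctnnd2 were among the genes that did not pass.

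Of 10 tested cadherin-repeat genes outside the naming rule, Clstn3, a calsyntenin of the postsynaptic membrane, fell and 9 did not pass. Over all tested rows 3.17% fell. Clstn3 was at 17.1, 16.4 and 25.6 TPM in knockout libraries and at 35.6, 36.0 and 32.4 TPM in wild-type libraries (log2 fold change -0.81, limma adjusted p = 0.045). It kept its call without knockout replicate 3 (0.0209) and lost it without any other single library (highest 0.1497), and passed in 3 of 15 alternatives in all. Its relatives Clstn1 and Clstn2, the most abundant of this list, averaged 182 and 120.3 TPM in knockout libraries and 186 and 107.9 TPM in wild-type libraries. Of 16 tested proteases and cytoplasmic partners of cadherins and protocadherins, Cyfip2, a subunit of the actin-regulating WAVE complex to which several delta-2 protocadherins bind, fell to 115, 89.2 and 114 TPM in knockout libraries, against 166, 194 and 177 TPM in wild-type libraries (log2 fold change -0.76, SE 0.13, limma adjusted p = 0.0162). Cyfip2 was the 1 gene of these 16 that passed, beside 5.03% of all tested rows. That call was lost without wild-type replicates 2 or 3 or knockout replicates 1 or 2 (highest 0.0559). The WAVE subunits Nckap1 and Brk1, the most abundant of the list, differed by 0.02 and 0.18 and did not pass.

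Factors known to act at clustered protocadherin promoters did not pass limma in any of 11 tested genes, and 3 were lower and 0 higher at an unadjusted p below 0.05, where 14.1% of all tested rows were lower. These 3 were the cohesin subunit genes Smc1a, Smc3 and Rad21. Smc1a was at 58.2, 53.1 and 61.5 TPM in knockout libraries and at 65.6, 86.6 and 90.7 TPM in wild-type libraries (log2 difference -0.47, adjusted p = 0.0992, and 0.0397 without wild-type replicate 1). It passed in 1 of 15 alternative fits, with a highest limma adjusted p of 0.312. Rad21 was at 49.8, 49.5 and 63.2 TPM in knockout libraries and at 67.9, 72.1 and 76.8 TPM in wild-type libraries (log2 difference -0.42, adjusted p = 0.109). All 11 had a negative log2 difference, beside 55% of all tested rows, with a median of -0.24. With median-of-ratios rescaling all 11 were also negative, with a median of -0.17. Ctcf, the factor that loops these promoters to their enhancers, was among those whose groups did not overlap (-0.24, adjusted p = 0.376).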

How the data were processed

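RNA was extracted with the PicoPure kit and amplified with an Ovation kit, per the labels' protocols. Per the submitters' processing notes, cutadapt, Bowtie2 and RSEM 1.2.7 were used with the mm10 build, and no source used here gives the annotation. The authors deposited TPM values, 1 column per library, with replicates not pooled. TPM scales each library to the same total, so a rise of abundant transcripts lowers others, and it keeps no depth, so no counting interval was computed.

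The highest-mean row per name was used. limma 3.58.1 in R 4.3.3 was fitted to log2(TPM + 1) with an intensity trend and genotype as the sole term, over 13787 rows whose mean TPM reached 1, two-sided, with Benjamini-Hochberg adjustment and a threshold of 0.05. It was tested on simulated data. With 3 against 3 libraries an exact permutation p is at least 0.1, so that test was not used. Same-numbered libraries were not treated as pairs, as the labels give no pairing.

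Members and lists were chosen with earlier results of these data known. The text names every Cdh and non-clustered protocadherin with a mean of at least 1 TPM, of the Pcdha and Pcdhb rows any that passed and the 2 highest by mean in each, and of each context list the genes that passed and the 2 highest. The C-type isoforms named by the rule are not analysed here. Smc3, Ctcf, Ctnnd1, Ctnnd2, Pcdhb10, Pcdhb12, Pcdhb19, Pcdhb20 and members under the filter were named after their values were seen. Not found by name were Afdn (present under its older name Mllt4), Dchs2, Cdhr4, Wapl, Whrn and Acta2. Positions and untranslated regions (84.3% of tested names) came from GENCODE vM21 with Python 3.11.15 and NumPy 2.4.6.

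Markers of other cells were read from marker lists. Of the tested markers, 1 of 8 pan-neuronal genes and 1 of 6 Schwann cell genes rose, where 1.86% of all tested rows did. Of 5 nociceptor genes 1 fell (Tac1), where 3.17% of all tested rows did. The others, Scn10a, Scn11a, P2rx3 and Calca, had positive differences (1.93, 1.42, 0.70 and 0.10) that did not pass. At an unadjusted limma p below 0.05, 3 nociceptor genes were higher and 1 lower, beside 9.77% and 14.1% of all tested rows. For Scn10a and Scn11a the knockout libraries lay wholly above the wild-type libraries, as in 11.8% of all tested rows. The part of nociceptors in the differences described here was not tested. None of 5 fibroblast genes, 2 endothelial and mural genes and 1 macrophage gene passed limma, with 0, 0 and 1 at an unadjusted p below 0.05.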

Additional observations from a re-analysis of the deposited data

How the results depend on the processing

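All 8 members that passed the test kept their direction under every alternative run, which were 15 for Cdh20, Cdh8, Cdh12, Cdh13, Pcdh10 and Pcdh17 and 14 for Cdh7 and Pcdh8. Cdh20 and Pcdh8 also kept their call under each of them (adjusted p 0.00207 to 0.0231 and 0.00652 to 0.0428). The highest adjusted p was 0.112 for Cdh12, 0.157 for Cdh13, 0.0779 for Cdh7, 0.189 for Cdh8, 0.168 for Pcdh10 and 0.143 for Pcdh17. The mean filter of 5 TPM removed Cdh7 and Pcdh8, so that 1 non-clustered protocadherin was called lower. With no filter on low values 130 rows were called higher and 248 lower in all, with 0 Cdh genes higher and 1 non-clustered protocadherin lower. Without the intensity trend these were 57 and 168 rows, 0 Cdh genes higher and 2 lower, and 0 non-clustered protocadherins higher and 1 lower. With the satellite glia covariate they were 69 and 92 rows, 0 and 1 Cdh genes, and 0 and 1 non-clustered protocadherins. Without replicate 3 of both groups they were 65 and 139 rows, 0 and 1 Cdh genes, and 0 and 1 non-clustered protocadherins. Median-of-ratios rescaling called 2 non-clustered protocadherins higher (Pcdh17 and Pcdh19), with 375 rows higher and 385 lower in all. Over the 6 fits without 1 library, rows called higher ranged from 48 to 348 and lower from 116 to 487, Cdh genes from 0 to 1 higher and 2 to 4 lower, and non-clustered protocadherins from 0 to 1 higher and 1 to 2 lower. Among the partner genes called, the satellite glia covariate and the fit without the intensity trend ended each of the 6 calls (Ctnnb1, Jup, Ctnna2, Pkp4, Clstn3 and Cyfip2, adjusted p 0.0782 to 0.194 and 0.0796 to 0.125), as did leaving out replicate 3 of both groups (0.0543 to 0.1855). No filter ended those of Ctnnb1 (0.0693), Jup (0.0675), Ctnna2 (0.0675), Pkp4 (0.0564) and Clstn3 (0.0773). Median-of-ratios rescaling ended those of Pkp4 (0.0539) and Clstn3 (0.0519), a replicate block those of Ctnnb1 (0.0527), Pkp4 (0.0692) and Clstn3 (0.0669), and a pseudocount of 0.1 that of Clstn3 (0.0501). Clustered protocadherins had 0 calls throughout. The cause of these changes was not tested.

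Correlations of same-numbered libraries' deviations were 0.05, 0.07 and 0.04, under the 0.1 set for pairing, and the labels give no pairing. Replicate 3 was the library with Ddx3y in both groups, and the satellite glia level had the same order by number in both. Whether the numbers pair the libraries is therefore not known. With a replicate block 188 rows were higher and 341 lower, 1 Cdh gene was higher and 4 lower, and 1 non-clustered protocadherin was higher (Pcdh18, adjusted p = 0.0372, in place of Pcdh17, 0.0623) and 2 lower. Among genes that did not pass, signs changed as follows. With the satellite glia covariate Cdh11 was at 0.20, Cdh19 at 0.52, Cdh2 at 0.016, Pcdhb13 at 0.31, Pcdhb4 at 0.48 and Clstn1 at 0.0038. With median-of-ratios rescaling Pcdhb13 was at 0.018 and Clstn1 at 0.041. Without replicate 3 of both groups Cdh19 was at 0.30. Leaving out 1 library changed the sign for Cdh1 (-0.19 to 0.40), Cdh11 (-0.44 to 0.017), Cdh19 (-0.55 to 0.36), Pcdh9 (-0.055 to 0.20), Clstn1 (-0.10 to 0.024), Nckap1 (-0.024 to 0.043) and 6 beta genes. These were Pcdhb13 (-0.31 to 0.43), Pcdhb14 (-0.57 to 0.035), Pcdhb15 (-0.15 to 0.32), Pcdhb4 (-0.64 to 0.0066), Pcdhb7 (-0.16 to 0.36) and Pcdhb8 (-0.69 to 0.28).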
